A study of Mus musculus with 18 samples.

Results

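The TGF-beta superfamily was examined outside its endoglin branch, that is, without Eng, Acvrl1, Bmpr2, Tgfbr2, Tgfbi and the genes of SMADs 1, 5, 6 and 7. The remaining genes were taken by symbol: BMP, TGF-beta, SMAD, activin receptor, inhibin and activin subunit, GDF, LTBP and follistatin names, together with Id2, Id4, Nog and Chrd. Each gene was represented by its brightest probe set among those that carried its symbol alone on the 3 chips. This gave 52 genes of 15964 measured in the same way. The cells came from retinas of FVB/N mice at postnatal day 8 that were homozygous for a Tie2-GFP transgene, in which the Tie2 promoter, active in endothelium, drives GFP. The retinas were pooled, dissociated with papain and sorted, without treatment, into GFP-positive cells (endothelial) and GFP-negative cells (all other sorted retinal cells, the control), so both populations carried the transgene. RNA was amplified and read on Affymetrix MGU74v2 oligonucleotide arrays, a set of 3 chips named A, B and C, and every chip was run 3 times for either population, or 18 arrays in all. The labels do not say whether replicate arrays stem from different mice, so a p-value here reflects array-to-array spread alone, possibly of technical origin.

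Ligands of the TGF-beta superfamily are secreted dimers that bind a pair of type II and type I receptor kinases. TGF-betas, activins and some GDFs signal mainly through SMAD2 and SMAD3, BMPs through SMADs 1, 5 and 9, and all of them share SMAD4. Latent TGF-beta binding proteins hold TGF-beta in the matrix, noggin, chordin and follistatin trap ligands outside the cell, and ID proteins are classical products of BMP signalling. In growing vessels, endothelial cells receive such signals from neighbouring cells and from the circulation, and betaglycan, encoded by Tgfbr3, presents TGF-beta2 to its receptors.

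The sort was checked against marker genes. Of 11 endothelial markers 9 were higher in GFP-positive cells and none was lower, and their summed intensity, added over the chips by replicate number, was 11640 to 14660 on GFP-positive against 2053 to 3009 on GFP-negative arrays. Kdr and Pecam1 did not pass. Most of the GFP-negative sum was Kdr, at 1986, 2447 and 2272 on GFP-positive against 2796, 2128 and 1811 on GFP-negative arrays. Every other endothelial marker lay between 6.62 and 57.2 on GFP-negative arrays. Of 8 Müller glia markers 6 were lower in GFP-positive cells, with sums of 784.6 to 1927 against 5099 to 8297. Of 11 pericyte and smooth muscle markers none was higher and 1, Abcc9, was lower, with sums of 422.8 to 517.4 against 467.3 to 555.8. Of 12 microglia and leukocyte markers C1qb and Fcer1g were higher, with sums of 610 to 1498 against 504.4 to 534.8. No marker of these lists was at 0 on any array. GFP-positive replicate 3 stood apart: its Spearman correlation with the other GFP-positive arrays was 0.911 to 0.929, against 0.960 to 0.987 for the other pairs within a population. Calls among the 52 genes that change without it are given both ways.

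Most genes of the family did not differ past the threshold between endothelium and the rest of the retina, and those that did lay in both directions. Of the 52 genes, 5 were higher in GFP-positive cells (Tgfbr3, Fstl1, Tgfb1i1, Bmp2k and Ltbp4), 8 were lower (Fstl5, Gdf11, Tgfb2, Bmpr1a, Id4, Bmp5, Inhba and Acvr2b) and 39 did not pass. A gene passed at an adjusted p under 0.05 in limma, with Benjamini-Hochberg adjustment over all probe sets of its chip. Over all 15964 genes, 9.83% were higher and 11.9% were lower, or 21.8% in either direction. The family's shares were 9.62% and 15.4%, or 25.0% together, so the number of calls lay near that of all genes. The median log2 difference was 0.06, beside 0.04 over all genes. Differences are given throughout as GFP-positive less GFP-negative in units of log2(intensity + 16), and the added 16 shrinks the differences of dim probe sets. In these bulk samples, more cells of a type and more RNA per cell cannot be told apart.

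**Figure D1:**
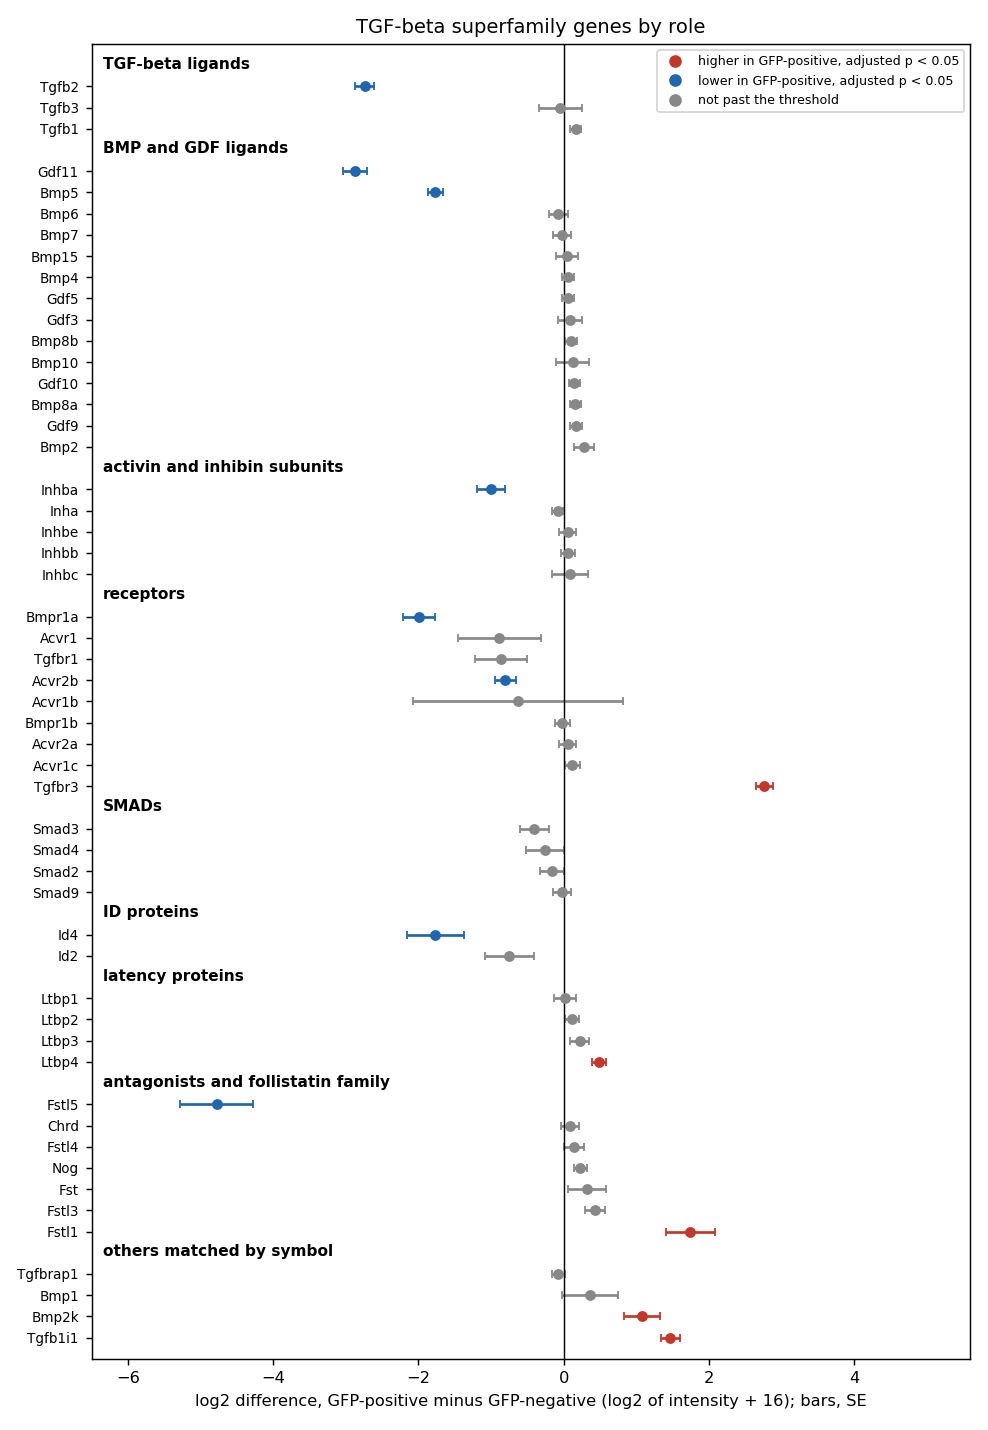
Log2 difference (GFP-positive minus GFP-negative, log2 of intensity plus 16) of each of the 52 genes, grouped by role, with points for the limma estimate from 3 arrays per population and bars for its SE. Fstl5, Gdf11 and Tgfb2 lie farthest to the left at -4.78, -2.87 and -2.74 and Tgfbr3 farthest to the right at 2.76, while the 4 SMADs lie between -0.40 and -0.02.

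For 20 of the 52 genes every array of one population lay above every array of the other, 10 with GFP-positive above and 10 with GFP-negative above; over all genes the shares were 22.2% and 19.2%, or 41.4% together. Many of the genes were dim: 26 of the 52 stayed under 100 intensity units on all 6 arrays and 18 had a mean below the median of their chip. Among the 34 above that median 11 passed, and among the 18 below it 2 did. Of all genes, 27.6% above and 10.2% below the median passed. Of the 39 genes that did not pass, 29 had differences under 0.25 in size.

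**Figure D2:**
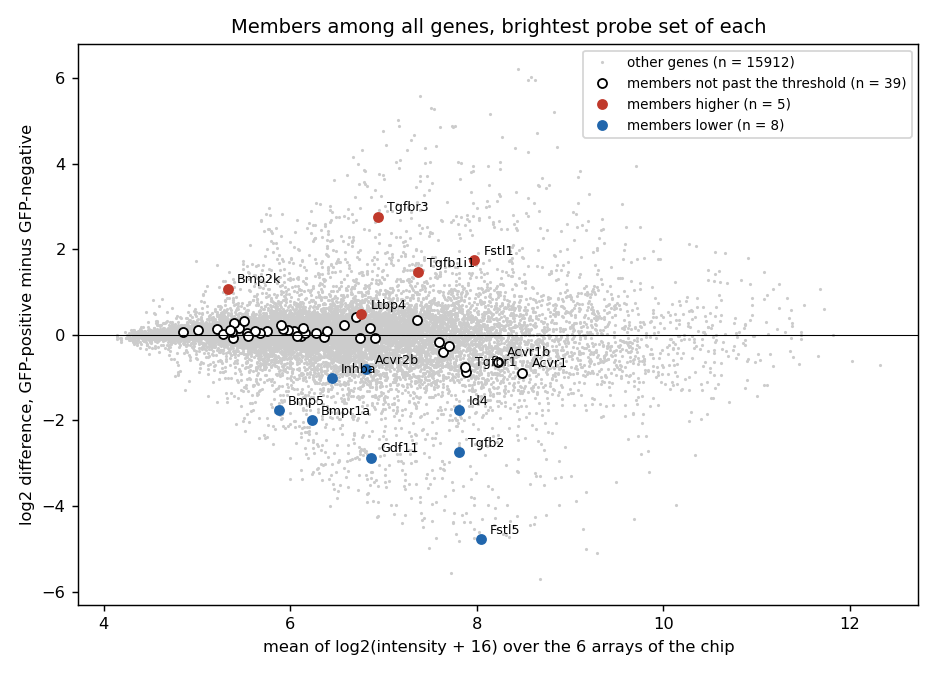
Log2 difference (GFP-positive minus GFP-negative) against mean log2 of intensity plus 16 over the 6 arrays of the chip, for all other genes (grey) and the 52 genes of the family. The 5 higher genes and 8 lower genes are filled, and the 39 that did not pass, drawn open, lie mostly along 0.

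Among the TGF-beta ligands the transcript of Tgfb2 separated the populations. Its intensity was 76.3, 72.7 and 64.5 on the GFP-positive and 674, 545 and 491 on the GFP-negative arrays. Every GFP-negative array was far above every GFP-positive one, and the means of 71.1 ± 6.07 and 570 ± 94.2 (SD, n = 3 arrays each) differed 8.02-fold. The log2 difference was -2.74 (SE 0.13, adjusted p = 0.000113, limma). Tgfb3, a related ligand, was 48.3, 46.5 and 117 against 65.9, 70.5 and 67.0. GFP-positive replicate 3 was the highest of these arrays and the other GFP-positive arrays were the lowest, so the gene did not pass (-0.04, adjusted p = 0.945) but was lower without that array (-0.40, adjusted p = 0.0106). Tgfb1, which encodes the most widely expressed TGF-beta, was dim at 28.3, 31.4 and 31.9 against 25.7, 27.5 and 23.3 (0.17, adjusted p = 0.199).

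BMPs and GDFs are the largest group of ligands, and 12 of its 14 genes did not pass. Those 12 lay between 17.9 and 110 units on every array, with differences from -0.07 to 0.28. Among them were Gdf9, known from the oocyte, at 0.17 (SE 0.08), Bmp4, a dorsal signal of the developing eye, at 0.06 (SE 0.08), and Bmp8a at 0.16 (SE 0.07). Both genes that passed were lower in GFP-positive cells. Gdf11, a regulator of neurogenesis in the retina, was 28.9, 27.3 and 25.5 on the GFP-positive and 277, 391 and 251 on the GFP-negative arrays. The GFP-positive arrays agreed closely at a dim level, and the log2 difference was -2.87 (SE 0.16, adjusted p = 8.44e-05). Bmp5, a BMP of the same subgroup as Bmp7, was 15.8, 16.8 and 15.1 against 107, 89.4 and 82.4, again without overlap (-1.77, SE 0.11, adjusted p = 0.000113). Bmp7 itself, which takes part in early eye formation, was at -0.03 (SE 0.12), and Bmp6, an endothelial ligand in other organs, at -0.07 (SE 0.13). The calls of Tgfb2, Gdf11 and Bmp5 held with each array left out in turn.

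The bases before the start sites of these 3 ligand genes are shown because the transcripts were low in endothelium together, and those of Fstl1, a secreted glycoprotein higher in endothelium, stand beside them for contrast. The sequences are from RefSeq (GRCm38.p6), 250 bases upstream of the start, written from 5′ to 3′ on the gene's strand. They lie at chr1:186705990-186706239 (minus strand), chr10:128891719-128891968 (minus), chr9:75775115-75775364 (plus) and chr16:37776805-37777054 (plus). Capitals mark the SMAD-binding core CAGAC on either strand; the GC-rich element GGCGCC was searched as well and was not found in these 4 windows.
Tgfb2: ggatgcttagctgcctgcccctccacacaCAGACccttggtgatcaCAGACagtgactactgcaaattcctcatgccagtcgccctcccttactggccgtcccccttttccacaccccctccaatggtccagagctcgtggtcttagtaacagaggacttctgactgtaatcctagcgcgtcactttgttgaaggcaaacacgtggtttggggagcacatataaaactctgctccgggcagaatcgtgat
Gdf11: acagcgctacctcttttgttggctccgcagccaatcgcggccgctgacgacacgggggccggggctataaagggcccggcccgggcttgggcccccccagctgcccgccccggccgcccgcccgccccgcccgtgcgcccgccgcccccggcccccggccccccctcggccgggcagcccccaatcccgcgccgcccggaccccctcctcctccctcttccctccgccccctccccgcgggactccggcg
Bmp5: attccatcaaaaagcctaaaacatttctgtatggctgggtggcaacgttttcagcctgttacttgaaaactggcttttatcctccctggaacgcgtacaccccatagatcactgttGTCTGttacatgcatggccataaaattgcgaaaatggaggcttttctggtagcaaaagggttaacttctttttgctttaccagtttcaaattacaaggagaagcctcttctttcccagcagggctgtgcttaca
Fstl1: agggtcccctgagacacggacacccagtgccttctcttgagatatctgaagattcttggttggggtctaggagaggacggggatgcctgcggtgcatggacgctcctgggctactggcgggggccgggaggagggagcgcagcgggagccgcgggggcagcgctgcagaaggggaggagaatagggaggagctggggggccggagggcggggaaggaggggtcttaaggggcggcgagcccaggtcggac
CAGAC occurred 2 times before Tgfb2 and 1 time before Bmp5, and was not found in the windows of Gdf11 and Fstl1. The windows differed in composition, with 53.6%, 81.2%, 42.8% and 68.0% G and C for Tgfb2, Gdf11, Bmp5 and Fstl1, beside a median of 52.4% over 32851 promoters of the same length. The GC box GGGCGG, on either strand, occurred 8 times before Gdf11 and 2 times before Fstl1. Of the 13 genes that passed, 11 had a sequence. CAGAC was found in 4 of the 8 lower and 0 of the 3 higher genes, and in 42.2% of all promoters. GGGCGG was found in 5 of 8 and 3 of 3, and in 32.7% of all, GGCGCC in 2 of 8 and 1 of 3, and in 9.6% of all, and the ETS core CGGAAG in none of the 11, and in 13.6% of all. Each motif was searched on both strands, and matches of GGGCGG and GGCGCC can overlap. A match describes letters only.

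Activins are dimers of inhibin beta subunits, and the alpha subunit turns them into inhibins. Inhba, the beta A subunit of activin A, was 40.3, 45.9 and 51.6 on GFP-positive and 150, 91.9 and 90.7 on GFP-negative arrays. The populations did not overlap, and GFP-negative replicate 1 was the highest array. The log2 difference was -1.01 (SE 0.19, adjusted p = 0.0167), a call that ended without GFP-positive replicate 2 (adjusted p = 0.0555) and with the replicate number as a block (adjusted p = 0.0564). The other 4 subunits did not pass: Inha, the alpha subunit, was 94.0, 89.4 and 82.8 against 92.3, 91.1 and 101 (-0.08, SE 0.08), and the rest were dimmer, with differences of 0.05 (SE 0.12) for Inhbe, 0.09 (SE 0.24) for Inhbc and 0.06 (SE 0.10) for Inhbb.

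**Figure D3:**
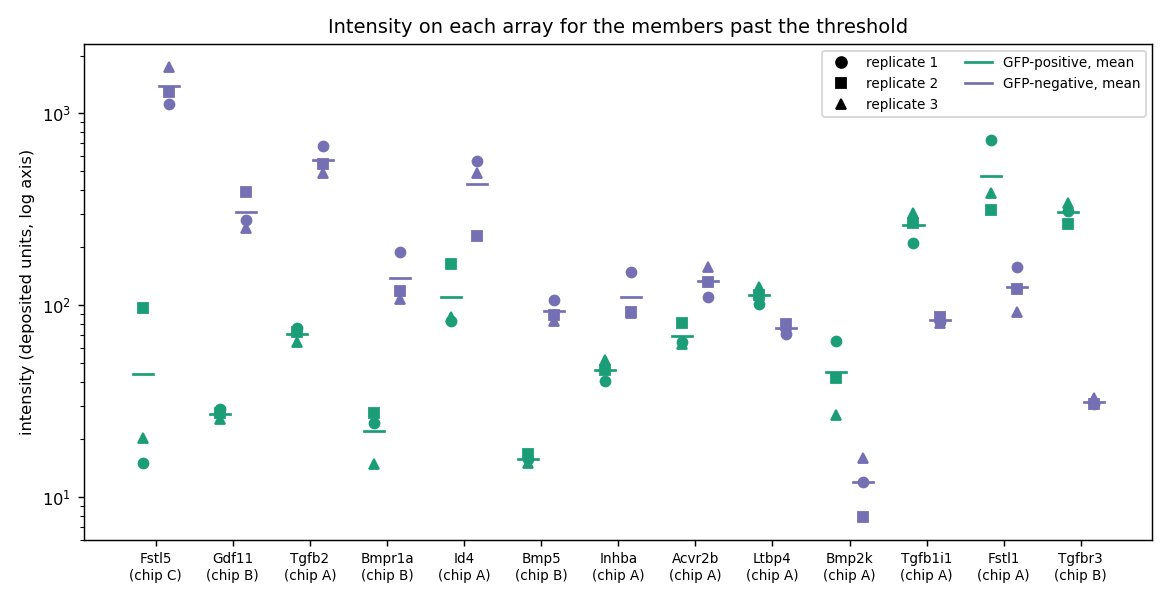
Intensity on each array (deposited units, log axis) of the 13 genes past the threshold, ordered from the most lower to the most higher in GFP-positive cells. Symbols are the 3 replicates of each population and short lines their means; no gene has overlapping populations, and Fstl5 and Bmp2k show the widest spread among GFP-positive arrays.

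Of the 9 receptor genes 1 was higher and 2 were lower. Tgfbr3, the gene of betaglycan, a coreceptor that binds TGF-beta2 and inhibin, was 311, 266 and 343 on GFP-positive and 30.4, 30.5 and 32.7 on GFP-negative arrays. The GFP-negative arrays were uniformly dim, below the chip's median and possibly at background, with means of 306 ± 38.6 and 31.2 ± 1.31 (log2 difference 2.76, SE 0.11, adjusted p = 2.87e-05). It opposed the direction of Tgfb2, whose product it binds. Bmpr1a, the type I BMP receptor ALK3, was 24.3, 27.4 and 14.8 against 188, 119 and 107. All GFP-positive arrays were dim, and the difference was -1.99 (SE 0.22, adjusted p = 0.00135). Acvr2b, a type II receptor for activins and GDF11, was 64.5, 80.4 and 62.9 against 111, 132 and 159. These populations lay closer together without overlapping (-0.81, SE 0.15, adjusted p = 0.0141), and leaving out GFP-negative replicate 2 ended the call (adjusted p = 0.0536). GFP-negative replicate 1 was the highest array of its population for Tgfb2, Bmp5, Inhba, Bmpr1a and Id4 among the lower genes. The same held for Id2 and Tgfbr1. This array also had the highest Müller glia and astrocyte marker sums of its population, 8297 beside 6530 and 5099 and 926.4 beside 489.2 and 568.2. Most of the astrocyte sum was Pdgfra, at 700 beside 252 and 300. Aldh1l1 (107 beside 117 and 151) and Pax2 (29.4 beside 35.7 and 29.5) were lowest on this array. Gfap (57.8 beside 53.1 and 58.4) was between the others and S100b (32.2 beside 30.8 and 28.8) slightly above them. The part of these cells in the results was not tested.

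The type I receptor genes Acvr1b, Acvr1 and Tgfbr1 did not pass with all arrays. Leaving out GFP-positive replicate 3 changed the calls of Acvr1b and Acvr1, while no single array left out changed that of Tgfbr1. Acvr1b, the activin receptor ALK4, was 47.2 and 57.1 on GFP-positive replicates 1 and 2 but 3006 on replicate 3, against 419, 495 and 214 on GFP-negative arrays. That single array was above all others, and the difference of -0.62 (SE 1.45, adjusted p = 0.788) became -2.45 (adjusted p = 0.00144) without it. Acvr1, the BMP and activin receptor ALK2, showed the same order, with 130, 163 and 692 against 404, 577 and 455. It moved from -0.89 (SE 0.57, adjusted p = 0.316) to -1.60 (adjusted p = 0.000662) without replicate 3. The dimmer chip A probe sets of Acvr1b and Acvr1 differed by -0.10 (adjusted p = 0.425) and -0.05 (adjusted p = 0.714) with all arrays. Tgfbr1, the TGF-beta receptor ALK5, was 247, 191 and 83.1 against 370, 277 and 272. Here replicate 3 was the lowest array, the populations did not overlap, and the gene did not pass (-0.86, SE 0.35, adjusted p = 0.138), nor without replicate 3, where the difference was -0.45 (adjusted p = 0.103). Acvr2a, Acvr1c and Bmpr1b differed by 0.06, 0.12 and -0.02.

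GFP-positive replicate 3 was at least 2-fold brighter than the mean of replicates 1 and 2 for 7 of the 52 genes (Acvr1b, Acvr1, Bmp1, Tgfb3, Fst, Inhbc and Bmp10), or 13.5%, and at least 2-fold dimmer for 3 (Fstl5, Tgfbr1 and Bmp2k), or 5.77%. Over all genes these shares were 6.78% and 3.58%. Besides the calls already given, the sign of 8 genes that passed neither with nor without this array turned when it was left out: Bmp1, Inhbc (-0.20), Bmp10 (-0.14), Ltbp1 (-0.12), Bmp15 (-0.11), Gdf3 (-0.10) and Chrd (-0.02) turned negative, and Smad4 turned positive (0.01). On this array the Müller glia marker sum was 1927, beside 784.6 and 1094 on GFP-positive replicates 1 and 2. Most of the rise was Glul, at 986 beside 136 and 156, which did not differ past the threshold between the populations. Slc1a3 (66.2 beside 32.6 and 34.1), Aqp4 (30.7 beside 17.6 and 16.8) and Vim (108 beside 37.9 and 45.3) were also highest there. Rlbp1 (26.8), Sox2 (21.7) and Dkk3 (31.1) were at their lowest of the GFP-positive arrays, and Apoe (656 beside 454 and 728) lay between. The microglia and leukocyte sum was 1498, beside 610 and 796, and Csf1r made most of it, at 930 beside 37.3 and 41.2. The inner retinal neuron sum was 4177, beside 469.6 and 562.5, and above the 1137 to 1682 of GFP-negative arrays. Most of it was Pcp2, a bipolar cell gene, at 3689. Glul, Csf1r and Pcp2 were each read from a probe set marked r before _at in its name, a kind left out in a repeated fit. Ptprc (56.7 beside 29.3 and 34.3), Cd68 (75.1 beside 38.8 and 42.3) and Calb2 (191 beside 57.2 and 58.9) were also highest there. Fcer1g (116 beside 175 and 366) and C1qb (53.2 beside 73.1 and 57.7) were lowest there. Aif1 (27.1 beside 24.7 and 24.3) and Gad1 (18.9 beside 15.4 and 15.1) rose little. The part of any such cells in the results was not tested.

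**Figure D4:**
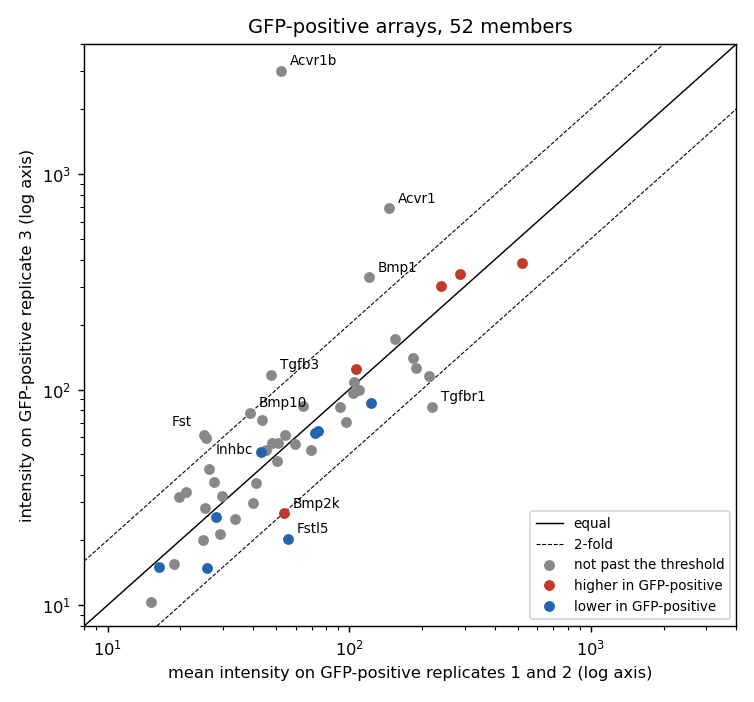
Intensity of the 52 genes on GFP-positive replicate 3 against the mean of replicates 1 and 2, both on log axes, with the line of equality and dashed lines at 2-fold. Acvr1b lies far above the upper dashed line at 3006, and 7 genes in all lie above it and 3 below the lower one.

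The 4 SMAD genes did not pass. Smad2 and Smad3, the transducers of TGF-beta and activin, were at -0.16 (SE 0.17) and -0.40 (SE 0.20, adjusted p = 0.196), Smad4, the shared partner, at -0.26 (SE 0.26) and Smad9, a BMP transducer, at -0.02 (SE 0.12). For Smad3 the arrays read 116, 193 and 171 against 210, 248 and 184, so that the populations overlapped. The ID genes encode inhibitors of basic helix-loop-helix factors. Id4, an inhibitor found in neural progenitors and glia, was 83.0, 163 and 86.6 against 563, 229 and 489. The populations did not overlap, although both varied widely between arrays (-1.77, SE 0.39, adjusted p = 0.0287). The photoreceptor marker sum ran in the same pattern, highest on GFP-positive replicate 2 and lowest of its population on GFP-negative replicate 2, at 420.3, 668.3 and 432.6 against 1312, 716.8 and 1348. Most of that pattern came from Sag, the gene of rod arrestin, at 65.2, 271 and 72.6 against 883, 334 and 894. Pde6b and Prph2 (56.1, 63.4 and 42.8 against 75.2, 58.3 and 79.0) ran likewise. Crx (122, 146 and 154 against 121, 133 and 146) and the remaining markers did not do so in both populations. Of the 8 photoreceptor markers 2 were lower and 6 did not pass. The part of these cells in the Id4 result was not tested. The call ended without GFP-positive replicate 1, GFP-negative replicate 1 or GFP-negative replicate 3 (adjusted p = 0.0727, 0.0990 and 0.111) and with the replicate number as a block (adjusted p = 0.0988). Id2, its relative, was 211, 168 and 126 against 480, 223 and 219. It lay in the same direction without overlap and did not pass (-0.75, SE 0.34, adjusted p = 0.204).

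Latent TGF-beta binding proteins anchor the ligand in the matrix. Ltbp4, the family member of elastic fibres, was 101, 113 and 125 on GFP-positive and 70.5, 79.5 and 77.8 on GFP-negative arrays. This was a small difference without overlap, 1.49-fold between the means (0.49, SE 0.09, adjusted p = 0.0174). It did not pass without GFP-positive replicate 2, GFP-negative replicate 1 or GFP-negative replicate 3 (adjusted p = 0.0602, 0.0708 and 0.0659). Ltbp3 was at 0.22 (adjusted p = 0.344), and at 0.35 (adjusted p = 0.0448) without GFP-positive replicate 3. Ltbp2 and Ltbp1 were dim and differed by 0.12 (SE 0.10) and 0.02 (SE 0.15).

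The follistatin family held the largest difference of the 52 genes, with all arrays and their brightest probe sets. Fstl5, a secreted follistatin-like protein, was 15.1, 96.5 and 20.4 on GFP-positive and 1122, 1291 and 1753 on GFP-negative arrays. Replicate 2 was the highest of the GFP-positive arrays and still far below every GFP-negative one, with means of 44.0 ± 45.6 and 1389 ± 326 (log2 difference -4.78, SE 0.50, adjusted p = 0.00333). The photoreceptor marker sum was also highest on GFP-positive replicate 2 within its population, at 668.3 beside 420.3 and 432.6. Most of its rise there was Sag (271 beside 65.2 and 72.6), while Crx (146 beside 122 and 154) was not highest there. On GFP-negative arrays the sum was 1312, 716.8 and 1348, lowest on replicate 2, where Fstl5 was not at its lowest. The part of photoreceptors in the Fstl5 result was not tested. Without any 1 array the Fstl5 difference stayed between -5.36 and -4.43. Fstl1 was 724, 312 and 385 against 159, 121 and 92.2. All GFP-positive arrays were brighter, with replicate 1 the highest (1.74, SE 0.34, adjusted p = 0.0177), a call that was lost when GFP-negative replicate 2 or 3 was left out (adjusted p = 0.0656 and 0.0731). Fstl3, an activin-binding protein, was 114, 94.4 and 108 against 81.5, 84.3 and 59.3 and did not pass (0.43, SE 0.14, adjusted p = 0.0758). The ligand traps follistatin, noggin and chordin did not pass either, with Fst at 0.32 (SE 0.26) with all arrays and 0.02 without GFP-positive replicate 3, Nog at 0.23 (SE 0.08) and Chrd at 0.08 (SE 0.12), nor did Fstl4 at 0.14 (SE 0.14).

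Some genes share the symbols and not the role of ligands or receptors. Tgfb1i1 encodes Hic-5, a LIM protein of focal adhesions induced by TGF-beta, and was 211, 269 and 303 against 81.6, 87.2 and 80.9. It was 3.14-fold higher between the means (1.47, SE 0.13, adjusted p = 0.00109), and the call held with each array left out. The gene is also known from smooth muscle; none of the 11 pericyte and smooth muscle markers was higher in GFP-positive cells, and Acta2 was 28.6 ± 6.87 against 27.7 ± 5.66. The part of such cells in the result was not tested. Bmp2k, a kinase induced by BMP2, was dim at 65.4, 41.8 and 26.7 against 12.0, 7.86 and 16.1 (1.08, SE 0.25, adjusted p = 0.0333). Its call ended without GFP-positive replicate 2 or any 1 GFP-negative array (adjusted p = 0.0769 to 0.111), with the replicate number as a block (adjusted p = 0.0727) and with a pseudocount of 64 (adjusted p = 0.0670). Bmp1, the metalloproteinase that cleaves procollagens and chordin, was 108, 133 and 331 against 128, 143 and 117 and did not pass (0.36, SE 0.38); without GFP-positive replicate 3 the difference was -0.09. Tgfbrap1, an adaptor of TGF-beta receptors, was at -0.08 (SE 0.09).

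Of the 52 genes 28 had several probe sets, and 8 of these passed with their brightest one. For Bmpr1a and Bmp2k another probe set was called in the same direction, and for the other 6 no other probe set passed. Bmpr1a was also lower by probe sets on chip B (14.6, 12.5 and 15.6 against 82.0, 45.8 and 54.8, -1.32, adjusted p = 0.00268) and chip A (-0.58, adjusted p = 0.0123). The chip A probe set of Gdf11 was dim in both populations at 30.2 to 34.6 against 30.0 to 36.7 and differed by 0.01 (adjusted p = 0.955). For Tgfbr3 the probe set on chip A read 31.3 to 40.5 against 35.2 to 38.8 (-0.07, adjusted p = 0.703), for Bmp5 that on chip A differed by -0.13 (adjusted p = 0.355), and for Fstl5 that on chip B by 0.26 (adjusted p = 0.153). These calls therefore rest on 1 probe set each. With the brightest probe set of the first chip that holds a gene 4 higher and 5 lower genes were called, beside 9.42% and 11.2% of all genes. In the other direction, the dimmer probe sets of Smad4 (-0.55, adjusted p = 0.0225) and Acvr2a (-0.68, adjusted p = 0.0325) were lower where the brightest ones did not pass. Chips were tabulated separately, so the choice of the brightest probe set sets levels across separately scaled tables.

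**Figure D5:**
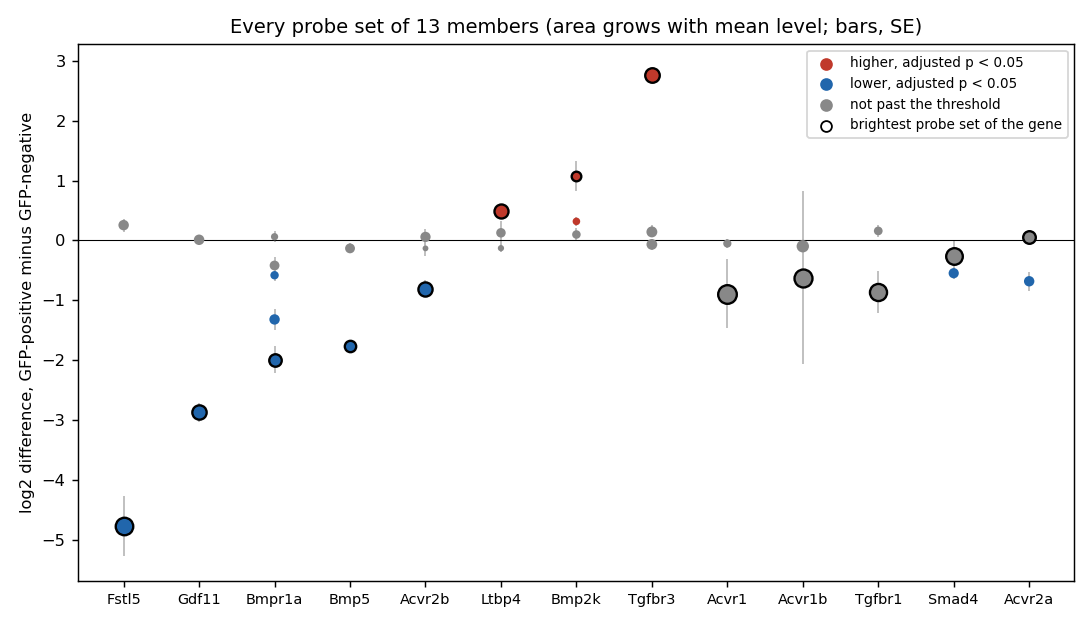
Log2 difference (GFP-positive minus GFP-negative) of every probe set of 13 genes, with the brightest one outlined, area growing with mean level and bars for the SE. For Fstl5, Gdf11, Bmp5 and Tgfbr3 the brightest probe set stands alone while the dimmer ones lie near 0, and for Bmpr1a 3 probe sets lie below 0 past the threshold.

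The count of higher genes moved when single arrays were left out. It was 3 when GFP-positive replicate 2 or GFP-negative replicate 1 or 2 was left out, and 2 when GFP-negative replicate 3 was. The share of all genes called higher was 6.52%, 5.91%, 5.94% and 6.43% in these fits, beside 9.83% with all arrays. The lower genes numbered 11 without GFP-positive replicate 3, where Acvr1, Acvr1b and Tgfb3 were added, and 7 without each of the other arrays. Of all genes, 17.1% were lower without GFP-positive replicate 3 and 8.11% to 10.8% without each of the others, beside 11.9% with all arrays. Of the 13 calls, 7 held in all 6 such fits (Tgfb2, Gdf11, Bmp5, Bmpr1a, Tgfbr3, Fstl5 and Tgfb1i1).

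The wider pathway was read from a list of 89 further genes, of which 80 were measured. The list was chosen with earlier results of these data known and holds the branch set apart, so its shares do not test the pathway. Of the 80 genes 20 were higher in GFP-positive cells and 8 lower, or 25.0% and 10.0%, beside 9.83% and 11.9% of all genes. The median log2 difference was 0.12. Of these 28 calls 18 held with each array left out, and 15 further genes were called in at least 1 such fit. The higher genes numbered 13 without any 1 GFP-negative array, beside 5.91% to 6.43% of all genes. The lower genes numbered 15 when GFP-positive replicate 3 was left out and 5 when replicate 2 was, beside 17.1% and 8.48% of all genes. The branch held apart supplied 6 of the higher genes and no lower one: Eng (2555, 3802 and 2602 against 30.4, 33.9 and 30.4) at 5.96, Tgfbi at 2.67, the type II receptor gene Tgfbr2 at 2.57 (0.19, adjusted p = 0.269, with the brightest probe set of the first chip), Smad1 at 1.33, Acvrl1 at 1.31 and the inhibitory Smad7 at 0.56. Acvrl1 did not pass without any 1 GFP-negative array (adjusted p = 0.0566 to 0.0631). Bmpr2, Smad5 and Smad6 did not pass.

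Among receptors and receptor partners, 3 of 9 were higher and none lower: Dab2, an endocytic adaptor that binds TGF-beta receptors, at 4.32, Ly6e, a GPI-anchored surface protein, at 3.47 and Bambi, a pseudoreceptor, at 1.18. Dab2 was 424, 492 and 507 against 10.2, 9 and 6.59, and Ly6e was 873, 1725 and 1585 against 95.2, 131 and 94.9, both without overlap. Of 15 secreted modulators 4 were higher and 2 lower. Bgn, the proteoglycan biglycan, was higher at 3.30, Kcp, a BMP-binding protein, at 1.89, Vasn, which binds TGF-beta, at 0.71 and Tll1, a chordin-cleaving protease, at 0.62. The calls of Vasn and Tll1 ended without single arrays, with adjusted p up to 0.142 and 0.112. Both lower modulators are BMP antagonists: Sostdc1 was 12.3, 12.2 and 11.5 against 809, 410 and 421 (-4.26, SE 0.25, adjusted p = 0.000103), and Chrdl1 was at -2.88 (SE 0.31, adjusted p = 0.00113).

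Of 8 activation and latency genes 3 were higher and 2 lower. Nrros, which tethers latent TGF-beta on myeloid cells, was higher at 2.41 (SE 0.12, adjusted p = 5.66e-05). Of the 12 microglia and leukocyte markers Fcer1g (175, 366 and 116 against 58.9, 58.0 and 61.4) and C1qb (73.1, 57.7 and 53.2 against 32.1, 27.3 and 27.5) were higher, while Aif1 was 25.4 ± 1.53 against 25.1 ± 1.08 and Cx3cr1 58.2 ± 3.38 against 58.8 ± 2.28; the part of such cells in the result was not tested. The protease gene Furin (1.29) and Emilin1 (0.45) were higher in calls that ended without single arrays (adjusted p up to 0.103 and 0.110). Itgb8, the integrin chain that activates TGF-beta, was 3.49, 4.21 and 3.96 against 297, 163 and 140 (-3.37, adjusted p = 0.000233), and its partner Itgav was lower as well (-1.28). That call rests on a probe set marked f before _at in its name, a kind that can match more than 1 transcript. Without probe sets marked s, x, f, g, i or r in this place Itgav was at -0.06 (adjusted p = 0.812). It was also lost without GFP-positive replicate 2 (adjusted p = 0.0637) or GFP-negative replicate 2 (adjusted p = 0.0601). Of 22 intracellular regulators 2 were higher, Fkbp1a, which binds type I receptors, at 1.72 and the corepressor Tgif1 at 0.41, and 4 were lower, the phosphatase Mtmr4 at -1.46, the ubiquitin ligase Nedd4l at -1.15, Strap at -1.07 and Map3k7, the kinase TAK1, at -0.72. Without the marked probe sets Nedd4l turned to 0.16 (adjusted p = 0.285) and Mtmr4 was at -0.20 (adjusted p = 0.229). With the brightest probe set of the first chip Map3k7 was at -0.06 (adjusted p = 0.921). The calls of Tgif1, Mtmr4 and Strap ended without single arrays (adjusted p up to 0.143, 0.0747 and 0.137). Of 12 target genes 2 were higher, Tsc22d1 at 1.60 and Cdkn1a at 2.32, the latter lost without single arrays (adjusted p up to 0.124). The BMP targets Id1 and Id3 did not pass (0.56, SE 0.42, and 0.65, SE 0.24), nor did the 5 further ligands Nodal, Lefty1, Lefty2, Amh and Mstn. Lefty1, a NODAL antagonist, read 310, 305 and 3123 against 1388, 1449 and 1229, and was lower without GFP-positive replicate 3 (-2.08, adjusted p = 8.65e-05) and with array weights (adjusted p = 0.00881). Without that replicate Amhr2 (-1.60, adjusted p = 0.000292), Cer1, Fbn2, Ppm1a, Rnf111 and Trim33 also passed as lower, and Tdgf1, Skil, Atoh8 and Klf10 as higher. Of these genes Lefty1, Amhr2, Fbn2, Ppm1a, Tdgf1 and Klf10 were read from probe sets marked r, f, i or g before _at.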

How the data were processed

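Gene expression was measured on 18 one-colour Affymetrix MGU74v2 arrays, 3 per population on each of chips A, B and C, grouped and numbered by their titles. The authors deposited 1 linear intensity for each probe set. Their probe summary, background correction and scaling are not given in the sources used here; another choice could change every difference. Array medians were 43.3 to 44.5, 40.7 to 44.6 and 32.5 to 34.4 on chips A, B and C, so the values were kept. Detection calls were not used here, so dim values may be background. The number of arrays limits the precision.

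Gene symbols came from GEO's platform annotation, and 1 probe set with 2 symbols, 1 of them of the family, was left out. All 52 genes matched the RefSeq gene table with unchanged symbols. The genes, the lists and the tests were chosen with earlier results of these data known. Each chip was fitted alone on log2 of intensity plus 16 with limma 3.58.1 (lmFit, eBayes, two-sided) in R 4.3.3, without a block, with Benjamini-Hochberg adjustment over the chip's probe sets. The fit was tested on simulated data. No set test was run. Genes named were all that passed, up to 3 of the brightest others per role, and those whose call changed without 1 array or between probe sets; further names were chosen after their values were seen. The fit was repeated with a pseudocount of 1 or 64, with quantile-normalized or median-centred arrays and without dim probe sets (below the chip median). It was also run with limma-trend and robust eBayes, with a replicate block, with array weights and with p-values adjusted over the 3 chips together. A further repeat left out probe sets marked s, x, f, g, i or r before _at in their names. These include, but are not limited to, probe sets that can match more than 1 transcript. The last repeats used the brightest probe set of the first chip, an adjusted p under 0.01, or left out each array in turn. Promoters came from RefSeq (GRCm38.p6), with 39 of 52 genes matched and the first listed start used. Figures were drawn with matplotlib 3.10.9.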

Additional observations from a re-analysis of the deposited data

How the results depend on the processing

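For each of the 52 genes the difference was recomputed under up to 18 alternatives. In 881 values the call was unchanged, 25 were no longer past the threshold, 9 were newly past it and 3 were reversed. Only values of genes that had passed were counted as reversed. The 881 therefore include values of genes that did not pass whose sign turned. The reversed values were all from the brightest probe set of the first chip that holds the gene. There Fstl5 was 0.26, Gdf11 0.0107 and Tgfbr3 -0.0667, because another, dimmer probe set was read. The lower genes then numbered 5, beside 11.2% of all genes. The same 13 genes were called under quantile normalization, median-centred arrays, a pseudocount of 1, limma-trend, joint adjustment of the chips and removal of probe sets marked before _at. With an adjusted p under 0.01 there were 2 higher and 5 lower genes, and 13 and 4 of the wider pathway, beside 4.87% and 6.53% of all genes. With array weights 9 were higher, beside 19.7% of all genes, and 18 of the wider pathway were lower, beside 18.5%. Removal of the marked probe sets left 5 lower genes of the wider pathway, beside 12.1% of all genes. Leaving out 1 array gave 2 to 6 higher and 7 to 11 lower genes, and 13 to 21 higher and 5 to 15 lower of the wider pathway. The shares of all genes in these fits were 5.91% to 14.9% higher and 8.11% to 17.1% lower. Same-numbered arrays of the populations had correlations of deviations from -0.368 to 0.292, so the numbers were not taken to pair them. With the replicate block 4 genes were higher and 6 lower, all among the 13, and 14 and 6 of the wider pathway, beside 7.3% and 9.78% of all genes. Detection calls were not used, so how far the 26 genes under 100 units lay above background is not known here.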
